A study of Mus musculus with 4 samples.

Results

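Arginine and polyamine metabolism was followed through 10 genes, of 31053 genes in the deposited tables, in macrophages that had or had not engulfed dying prostate cancer cells. The genes were taken by symbol: Arg1, Arg2 and Nos2, which use arginine, Odc1, Srm and Sms, which build polyamines, Sat1, which starts their removal, and Azin1, Oaz1 and Oaz2, which set how much Odc1 protein is kept. Bone marrow macrophages came from C57BL/6J mice, 4 weeks old in the account of this experiment and 4 to 6 weeks old and male in the methods, and had been cultured for 4 days with M-CSF at 30 ng/mL. RM1 cells, a mouse prostate cancer line driven by Ras and Myc, were killed with UV light for 30 min, labelled with the dye CFSE and kept with macrophages for 16 to 18 h in medium with 0.25% serum. Efferocytic macrophages were the F4/80+CFSE+ cells of that co-culture. Non-efferocytic macrophages were F4/80+ cells, called macrophages alone in the study's discussion and non-engulfing macrophages elsewhere in it. If they were cultured without RM1 cells, contact with dying cells and engulfment changed together. Single cells were measured by 3′ droplet sequencing in 2 experiments, each with 1 library per group, 4 libraries in all.

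Arginine has 2 main fates in a macrophage. Arginases split it into urea and ornithine, and nitric oxide synthases turn it into nitric oxide and citrulline, which is why Arg1 and Nos2 are the genes usually measured for alternative and for classical activation. Ornithine decarboxylase, made from Odc1, turns ornithine into putrescine, spermidine synthase (Srm) and spermine synthase (Sms) lengthen it into spermidine and spermine, and Sat1 acetylates both so that they can be exported or broken down. Antizymes, made from Oaz1 and Oaz2, bind ornithine decarboxylase and carry it to the proteasome, and the antizyme inhibitor made from Azin1 binds the antizyme in its place.

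Antizymes carry their own polyamine sensor in the coding sequence, where the ribosome must shift by 1 base to read past a stop codon, and this stretch is shown because it is what sets Oaz1 and Oaz2 apart from the other genes of the set. In the 2 lines below, 60 coding bases around it are given from the GENCODE transcripts (GRCm38, plus strand of both genes, 1 exon each), with the last codon before the shift and the stop codon TGA in capitals.
Oaz1, chr10:80828265-80828324: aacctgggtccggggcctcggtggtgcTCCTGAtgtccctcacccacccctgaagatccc
Oaz2, chr9:65686242-65686301: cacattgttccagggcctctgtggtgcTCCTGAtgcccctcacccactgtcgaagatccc
The annotation leaves out 1 base at this place, the first of the stop codon, after 68 codons in Oaz1 and after 32 in Oaz2. Of the 60 bases, 49 were the same in both genes. UMI counts of either gene report the transcript only and say nothing of how often the shift was made.

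Sms and Sat1 both lie on the X chromosome and act on the same molecules in opposite directions, so the bases before their starts are shown as well. RefSeq (GRCm38.p6) gave promoters for 5 of the 10 genes. The windows below hold the 250 bases before the start, and capitals mark the letters CACGTG, the E-box to which Myc and related factors bind, or the letters ACGTG, the core of the hypoxia response element, searched on both strands.
Sms, chrX:157492288-157492537, minus strand: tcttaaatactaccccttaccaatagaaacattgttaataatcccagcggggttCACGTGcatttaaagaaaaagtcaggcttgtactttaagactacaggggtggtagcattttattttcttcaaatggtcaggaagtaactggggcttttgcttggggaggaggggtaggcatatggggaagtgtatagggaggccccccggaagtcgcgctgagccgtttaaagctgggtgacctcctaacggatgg
Sat1, chrX:155216450-155216699, minus strand: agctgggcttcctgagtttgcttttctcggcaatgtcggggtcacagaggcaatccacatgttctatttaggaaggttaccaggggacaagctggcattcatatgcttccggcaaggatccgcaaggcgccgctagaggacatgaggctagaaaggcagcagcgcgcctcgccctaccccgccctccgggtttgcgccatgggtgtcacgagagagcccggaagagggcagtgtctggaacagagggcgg
This Sms window held 1 CACGTG, a motif present in 6.02% of the 32851 promoters of the table, and ACGTG, which every CACGTG contains, was present in 16.6%. A second RefSeq start of Sms and the windows of Odc1, Sat1, Oaz1 and Oaz2 held neither. A match in letters is a description and no evidence of a bound factor.

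A barcode counted as a cell from 200 genes and 1000 UMIs upward if no more than 10% of its UMIs were mitochondrial, which gave 6695 to 13411 cells per library with 101216659 to 155224183 UMIs. All 10 macrophage markers were detected in each library, with a summed level of 39412 CPM in non-efferocytic and 31384 CPM in efferocytic macrophages of Experiment 1, and of 33992 and 23679 CPM in Experiment 2. CPM are UMIs for each 1000000 UMIs of the cells of a library. Neutrophil markers summed to 3074 and 3383 CPM in the non-efferocytic and 961 and 719 CPM in the efferocytic libraries, all 10 detected in each, and 1.62% to 5.56% of cells held at least 3 of their UMIs. Fibroblast markers summed to 151 and 126 CPM against 49.1 and 55.4 CPM, and the list of genes expected in RM1 cells to 0.850, 0.176, 11.2 and 9.23 CPM in the order non-efferocytic and efferocytic of Experiment 1, then of Experiment 2. Cells of the efferocytic libraries held more UMIs, with medians of 17171 and 17476 against 11146 and 9600, so a level in CPM and a level per cell can part. The 2 libraries of Experiment 2 shared 118 cell barcodes, where 16.6 would be shared if barcodes were drawn at random. The other pairs shared 14 to 23, with 8.16 to 16.3 at random. The source of the shared barcodes was not tested.

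Between efferocytic and non-efferocytic macrophages, 4 of the 9 genes tested rose (Arg1, Srm, Sms and Azin1) and 2 fell (Sat1 and Oaz2), while Arg2, Odc1 and Oaz1 were not called and Nos2 had too few UMIs to be tested. The calls came from edgeR's quasi-likelihood test on UMIs summed per library, with the experiment as a block and a Benjamini-Hochberg threshold of 0.05 over 13869 genes. Over all of these genes 38.9% were called, 19.9% higher and 19.0% lower, so that calls in this comparison were common. The median log2 fold change of the 9 genes was 0.16 and that of all genes tested was -0.02. Scaled to UMIs per cell, which moved the median of all genes up by 0.62, Sat1 and Oaz2 changed sign and were no longer called, and Odc1 and Oaz1 were called higher. Without the block the call of Arg1 and that of Sat1 were lost, and DESeq2 did not call Arg1. Leaving out either non-efferocytic library left 2 and 0 calls over all genes, so the calls of all 6 genes ended there, with Arg1 at 3.397 and 4.23. Without efferocytic macrophages of Experiment 2, a fit with 1204 calls over all genes, Sms (0.55), Sat1 (-0.30) and Oaz2 (-0.37) were not called (edgeR, adjusted p = 0.0691, 0.175 and 0.0700). In CPM, 4 of the 9 genes tested were higher in both efferocytic libraries than in both non-efferocytic ones and 3 were lower, where 22.2% and 44.7% of all genes tested were.

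**Figure D1:**
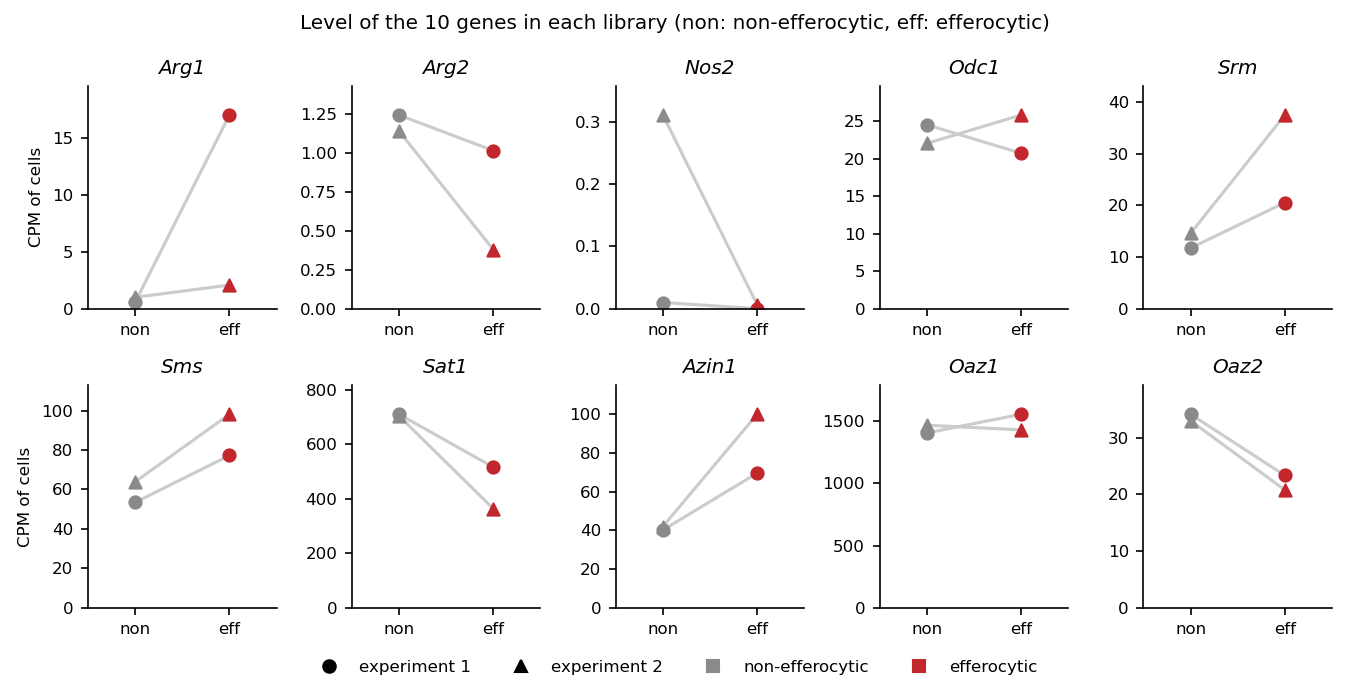
Level of each of the 10 genes in CPM (linear axes from 0), with 1 point per library, circles for Experiment 1, triangles for Experiment 2 and a line joining the libraries of an experiment. Srm, Sms and Azin1 were higher and Sat1 and Oaz2 lower in both efferocytic libraries (per cell, Sat1 and Oaz2 were not), Arg1 was at 17.0 CPM in 1 library and at most 2.08 CPM in the other 3, and the lines of Odc1 and Oaz1 cross.

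The arginase Arg1 (chr10:24915221-24927484, minus strand), the cytosolic enzyme, was rare in every library. It stood at 0.563 CPM in non-efferocytic and 17.0 CPM in efferocytic macrophages of Experiment 1, and at 0.997 and 2.08 CPM in Experiment 2, from 57, 2130, 138 and 323 UMIs. The groups did not overlap, but the efferocytic library of Experiment 1 stood far above the other 3. The ratio was 30.3-fold in Experiment 1 and 2.09-fold in Experiment 2, and edgeR gave a log2 fold change of 3.03 (SE 0.741, adjusted p = 0.0144). Without the efferocytic library of Experiment 1 the value was 1.48. The call was lost without the block (3.73, adjusted p = 0.0694). DESeq2 did not call the gene (3.098, adjusted p = 0.109), and over all alternatives the adjusted p of Arg1 ranged from 1.40e-23 to 0.249.

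Very few cells held most of this Arg1. In the efferocytic library of Experiment 1, 25 cells, 0.373% of the library, held 50% of its Arg1 UMIs, and 1 cell held 78. Cells with 10 or more Arg1 UMIs numbered 57 there, against 0 in the non-efferocytic library of the same experiment, and 7 against 3 in Experiment 2. After thinning each cell to 5000 UMIs, which leaves out shallower cells, an Arg1 UMI was found in 0.251% (exact 95% interval 0.149 to 0.396) and 2.11% (1.77 to 2.50) of cells in Experiment 1. In Experiment 2 the shares were 0.230% (0.146 to 0.345) and 0.633% (0.470 to 0.833). Intervals cover counting error only. Unthinned, the shares were 0.507%, 3.38%, 0.492% and 1.06% in the same order. As a background, free RNA making up 10% of the UMIs of each cell would put an Arg1 UMI in 0.0148%, 0.480%, 7.32% and 9.23% of thinned cells in that order. The shares of Experiment 2 lie far below it, so 10% overstates the free RNA of these cells and sets no floor for Arg1 there. How much of this Arg1 came from free RNA was not tested. On the same reckoning Odc1, Srm, Sms, Azin1 and Oaz2 would be found in 0.880% to 3.71% of cells, Sat1 in 16.5% to 23.9% and Oaz1 in 48.4% to 54.6%, all below the shares given for them later. For Arg2 this did not hold in efferocytic macrophages of Experiment 2, as given with that gene.

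Barcodes with at most 100 UMIs, taken here to hold free RNA, carried Arg1 at 0.297 and 9.62 CPM in Experiment 1 but at 152 and 194 CPM in Experiment 2. In Experiment 2 these levels lay far above those of the cells, and the same barcodes held haemoglobin genes at 10617 and 12570 CPM, against 272 and 320 CPM in Experiment 1. At the scale at which such barcodes would give all haemoglobin UMIs of the cells, 0.454% and 0.410% of cell UMIs in Experiment 2, they would also give 0.691 of the 0.997 CPM of Arg1 in non-efferocytic and 0.794 of the 2.08 CPM in efferocytic macrophages. With UMIs removed on that scale, 57, 2130, 42 and 200 Arg1 UMIs were left and the log2 fold change was 3.94 (edgeR, adjusted p = 0.00225). Removal of 10% of each library's UMIs in the same proportions left 0 Arg1 UMIs in both libraries of Experiment 2. The 3 cells with 10 or more UMIs in the non-efferocytic library of Experiment 2 held 28.3% of its Arg1 UMIs and the 7 in the efferocytic library 39.0%.

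**Figure D2:**
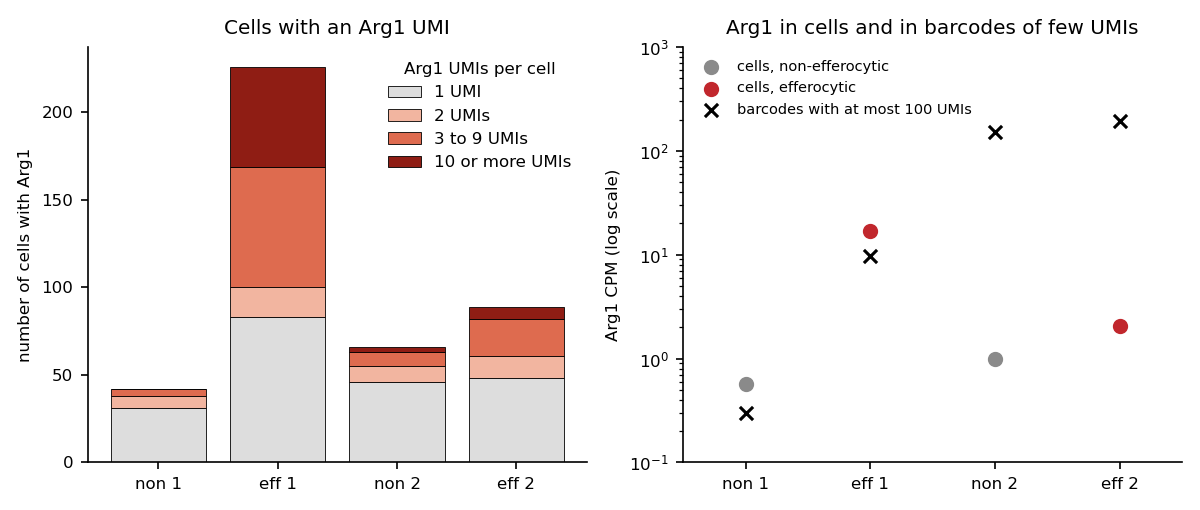
Left, number of cells with an Arg1 UMI in each library (non: non-efferocytic, eff: efferocytic, 1 and 2: experiment), stacked by UMIs per cell. Right, Arg1 level (CPM, log axis) in cells and in barcodes with at most 100 UMIs: the crosses lie below the cells in Experiment 1 and at 152 and 194 CPM, far above the cells, in Experiment 2.

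The cells that carried Arg1 were described by the transcripts with the highest ratio of carrying over other thinned cells. The ranking took the 2224 genes with at least 50 CPM in the carrying cells of both efferocytic libraries (130 and 50 cells), so a gene could enter through its level in those cells, and the values that follow describe the choice and test nothing. The 10 genes whose lower ratio was highest were Bnip3, Mpzl1, Slc2a1, Mmp12, Flrt2, Slc16a3, Mxi1, Cd300lf, Ndrg1 and Afg3l2. Bnip3, a mitophagy receptor, was at 209 CPM in carrying and 32.5 CPM in other cells in Experiment 1, and at 164 and 29.0 CPM in Experiment 2. Slc2a1, the glucose transporter, was at 120 and 14.8 CPM and at 68.0 and 14.3 CPM, and Slc16a3, which exports lactate, at 86.2 and 23.1 CPM and at 104 and 24.8 CPM. Mmp12, the macrophage elastase, was at 4175 and 378 CPM and at 1772 and 414 CPM. On the log2 scale of CPM plus 1 the ratios of these 10 genes ran from 1.63 to 3.46. Of the 130 and 50 carrying cells of the efferocytic libraries, 41 and 29 held 1 Arg1 UMI after thinning. In the non-efferocytic libraries 18 and 23 thinned cells carried Arg1, 12 and 18 of them with 1 Arg1 UMI, so levels there rest on few UMIs (Bnip3 at 33.3 and 26.1 CPM). The log2 ratios of the 10 genes ran from -0.96 to 2.14 in these libraries, and no pattern is read from them.

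**Figure D3:**
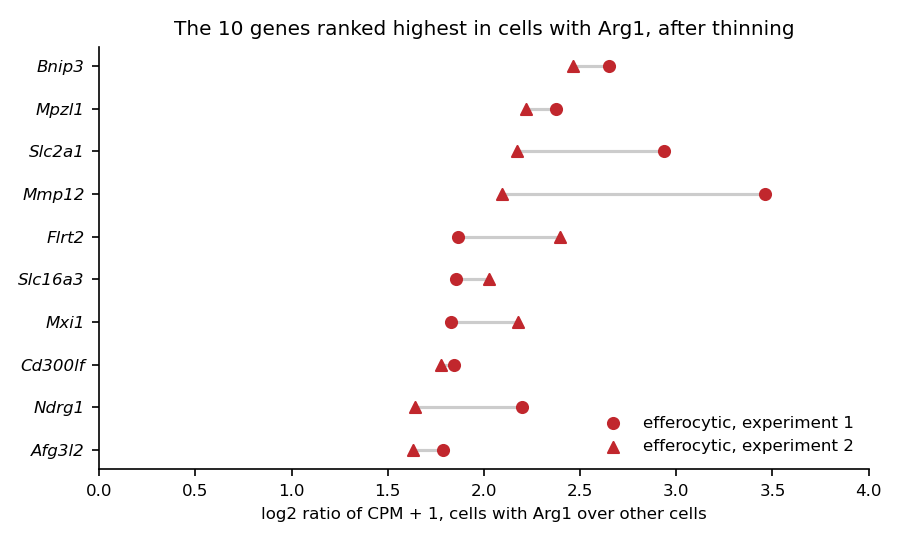
Log2 ratio of CPM plus 1 in thinned cells with an Arg1 UMI over the other cells, for the 10 genes ranked by the lower of their ratios, in the efferocytic libraries of Experiment 1 (circles, 130 carrying cells) and Experiment 2 (triangles, 50 carrying cells). The lowest ratio shown is 1.63, and Mmp12 has the highest ratio in Experiment 1. Of the carrying cells, 41 in Experiment 1 and 29 in Experiment 2 held 1 Arg1 UMI.

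Of the polyamine genes in Arg1-carrying cells, Sms was at 154 CPM in carrying and 72.5 CPM in other cells of the efferocytic library of Experiment 1, but at 88.0 and 96.2 CPM in Experiment 2. Azin1 was at 126 and 72.8 CPM and at 132 and 106 CPM, and the log2 ratios of Srm were 0.01 and -0.10. Fewer cells, 73 and 17, held at least 3 Arg1 UMIs after thinning. Against the other cells Azin1 was then at 134 and 73.2 CPM in Experiment 1 and at 106 and 106 CPM in Experiment 2. The log2 ratios of Srm were then -0.15 and -0.53. In the 18 and 23 carrying cells of the non-efferocytic libraries the log2 ratios of Azin1 were -0.84 and -1.19 and those of Srm -3.41 and 0.44, again on few UMIs. No test was made, since cells of 1 library are not replicates.

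The mitochondrial arginase Arg2 (chr12:79130777-79156301) stood at 1.24 and 1.02 CPM in Experiment 1 and at 1.14 and 0.380 CPM in Experiment 2, non-efferocytic macrophages first, from 59 to 158 UMIs per library. Both efferocytic values lay below both non-efferocytic ones, most of the gap coming from Experiment 2. After thinning, an Arg2 UMI was found in 0.613%, 0.585%, 0.500% and 0.139% of cells in that order. Free RNA at 10% of UMIs would give 0.00742%, 0.0182%, 0.465% and 0.401%. The share of efferocytic macrophages in Experiment 2 lay below this background, which overstates free RNA there. The part of free RNA in the gap was not tested. The log2 fold change was -0.79 (SE 0.311) and was not called (edgeR, adjusted p = 0.0763), although it was called with library totals in place of TMM and with no filter on genes (adjusted p = 0.00859 and 0.0371), and again when efferocytic macrophages of Experiment 1 were left out, in a fit with no block (-1.57, adjusted p = 0.0229). Over all alternatives its adjusted p ranged from 0.00859 to 0.840. On the opposite strand the annotation places Vti1b and Gm48780 over part of the gene.

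The inducible nitric oxide synthase Nos2 (chr11:78920787-78960254) was nearly absent. It had 1 and 0 UMIs in Experiment 1 and 43 and 1 in Experiment 2, and 41 of the 43 lay in a single cell of the non-efferocytic library. The 0 of the efferocytic library of Experiment 1 allows up to 0.0240 CPM (3 UMIs). Its counts are too few for a fold change to be given, and where every gene with a UMI was kept it was called lower on that 1 cell. Nos2 was at 4.59 and 7.16 CPM in the barcodes with at most 100 UMIs of Experiment 2 and at 0.742 and 1.09 CPM in those of Experiment 1 (5 and 6 UMIs), above the level in cells in all 4 libraries.

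Of the polyamine-building enzymes, Srm and Sms rose and Odc1, the first and most regulated step, was not called. Odc1 (chr12:17544794-17551505) was at 24.5 and 20.7 CPM in Experiment 1 and at 22.0 and 25.8 CPM in Experiment 2, so the groups overlapped and the experiments pointed in opposite directions. Its log2 fold change was 0.10 (SE 0.104, edgeR, adjusted p = 0.463), it was -0.0051276 with library totals as the scale, and it was called higher per cell (0.72, adjusted p = 0.0195). After thinning, an Odc1 UMI was present in 10.3%, 9.17%, 9.27% and 11.1% of cells.

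Spermidine synthase, Srm (chr4:148591503-148594993), rose in both experiments. It went from 11.7 to 20.5 CPM in Experiment 1 and from 14.6 to 37.5 CPM in Experiment 2. Both efferocytic libraries lay above both controls, and the ratio was 1.75-fold in the first and 2.57-fold in the second experiment. The log2 fold change was 1.197 (SE 0.117, edgeR, adjusted p = 0.000297), and thinned cells with an Srm UMI went from 4.58% to 8.54% and from 5.89% to 15.0%.

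Spermine synthase, Sms (chrX:157443855-157492287), whose promoter window with the E-box letters is printed above, was at 53.4 and 77.2 CPM in Experiment 1 and at 63.9 and 98.1 CPM in Experiment 2. The groups did not overlap, and the ratios of 1.45-fold and 1.54-fold were close to each other. Its log2 fold change was 0.68 (SE 0.0774, edgeR, adjusted p = 0.000555), and 0.58 with library totals, the scale of the CPM ratios. The share of thinned cells with a UMI was 22.0% and 29.4%, then 24.7% and 36.5%.

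Sat1 (chrX:155213132-155216449), which acetylates spermidine and spermine, fell in CPM but not per cell. It went from 710 to 517 CPM in Experiment 1 and from 705 to 364 CPM in Experiment 2. The controls lay close together, and both efferocytic libraries lay well below them. The log2 fold change was -0.60 (SE 0.147, edgeR, adjusted p = 0.0147), and 0.02 on the scale of UMIs per cell (adjusted p = 0.920). The median of all genes on that scale was 0.60. With each cell thinned to 5000 UMIs Sat1 was at -0.63 and called lower (edgeR, adjusted p = 0.00783). In UMIs per 100 cells Sat1 was at 868 and 965 in Experiment 1 and at 727 and 672 in Experiment 2, so on this scale the groups overlapped. The call was lost without the block (-0.57, adjusted p = 0.106) and with 10% of UMIs removed as free RNA (-0.64, adjusted p = 0.0779), and over all alternatives the adjusted p ranged from 1.86e-05 to 0.920. Thinned cells with a Sat1 UMI made up 93.7% and 88.5%, then 94.1% and 80.8%.

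Xist, the RNA of the inactive X chromosome, was at 457 and 393 CPM in the libraries of Experiment 1 and at 0.846 and 0.580 CPM in those of Experiment 2, though the methods name male mice. Sms and Sat1 are X-linked, and within each experiment both libraries were alike in Xist. The part of this difference in the values of Sms and Sat1 was not tested.

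Among the regulators of Odc1 protein, the antizyme inhibitor Azin1 rose and the antizyme Oaz2 fell in CPM, while Oaz1 was not called. Azin1 (chr15:38487427-38519266) went from 40.2 to 69.5 CPM in Experiment 1 and from 42.0 to 99.97 CPM in Experiment 2. The controls lay close to each other and below both efferocytic libraries. Its log2 fold change was 1.13 (SE 0.103, edgeR, adjusted p = 0.000227), and the share of thinned cells with a UMI went from 17.4% to 28.6% and from 17.2% to 37.7%.

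Oaz1 (chr10:80826656-80829290), with a UMI in at least 99.8% of thinned cells of each library, was at 1404 and 1554 CPM in Experiment 1 and at 1466 and 1429 CPM in Experiment 2. The libraries overlapped and the log2 fold change was 0.16 (SE 0.133, edgeR, adjusted p = 0.366). Per cell it was called higher (0.78, adjusted p = 8.10e-10), a value near the shift of 0.62 that this scale gives the median of all genes.

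Oaz2 (chr9:65668001-65690300), the second antizyme with the shift site printed above, went from 34.1 to 23.3 CPM in Experiment 1 and from 33.0 to 20.8 CPM in Experiment 2. The 2 controls were close to each other, as were the 2 efferocytic libraries. Its log2 fold change was -0.50 (SE 0.0835, edgeR, adjusted p = 0.00292). Per cell it was 0.12 and not called (adjusted p = 0.715), where the median of all genes was 0.60. Thinned cells with an Oaz2 UMI made up 16.3% and 11.5%, then 16.2% and 11.3%. The annotation names 1 pseudogene each of Sms, Oaz1 and Oaz2, with which reads can be shared, and none of the 3 is a row of the deposited tables.

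**Figure D4:**
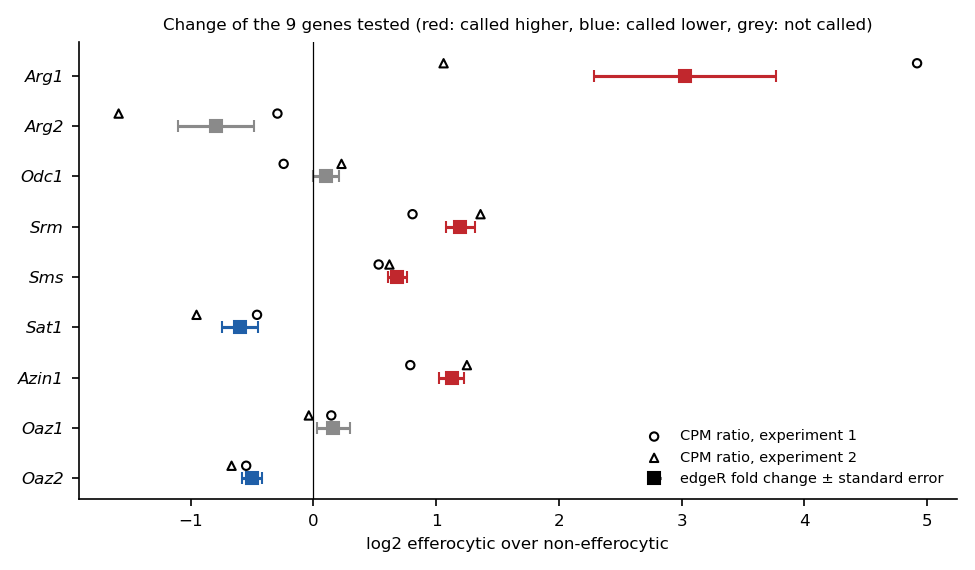
Log2 fold change of the 9 genes tested, efferocytic over non-efferocytic (squares, edgeR with the experiment as a block, bars are 1 standard error), with the CPM ratio within Experiment 1 (open circles) and Experiment 2 (open triangles). Squares are scaled by TMM and ratios by library totals, so a square can lie outside both ratios. Srm, Sms and Azin1 lie to the right of 0 with both ratios, Sat1 and Oaz2 to the left (per cell they were at 0.02 and 0.12), and the ratios of Arg1 are 4.92 and 1.06.

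The calls were set against cells of other types. Leaving out each cell with at least 3 UMIs of the neutrophil, fibroblast, basophil and mast cell, dendritic, lymphocyte or erythroid list, the log2 fold changes were 3.09 for Arg1, 1.35 for Srm, 0.64 for Sms, -0.65 for Sat1, 1.11 for Azin1 and -0.53 for Oaz2, and edgeR called all 6 (adjusted p from 0.000229 to 0.0155). Restricted to cells in which no gene of the RM1 list had a UMI, it also called these 6 genes. That filter took out only 0.399% and 0.299% of cells in Experiment 1 and 0.425% and 0.416% in Experiment 2, non-efferocytic first. So few cells could hardly change a call. Whether the list marks RM1 cells, which the study's materials describe as fibroblast-like, was not tested, nor was the part of RM1 RNA in the calls. Cells with fibroblast markers, 0.344% to 1.253% of a library, were high in Srm, at 146 and 88.7 CPM in Experiment 1 and 84.6 and 141 CPM in Experiment 2, and in Odc1, at 95.1, 70.4, 57.2 and 62.0 CPM in the same order. They were not alone in this. Cells with a UMI of the RM1 list had Srm at 137, 66.1, 110 and 129 CPM and Odc1 at 75.1, 50.9, 75.5 and 64.1 CPM. Cells with lymphocyte markers had Odc1 at 41.7, 37.0, 55.7 and 62.5 CPM. Cells with neutrophil markers had Arg1 at 0.351, 6.57, 1.86 and 2.34 CPM, on only 1, 3, 5 and 3 cells with an Arg1 UMI. All cells had it at 0.563, 17.0, 0.997 and 2.08 CPM, higher in Experiment 1 and lower in Experiment 2. Without the barcodes that libraries shared, 4 genes were again called higher and 2 lower.

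Which cells carried each enzyme was described in the same way as for Arg1, for the 5 genes found in 1% to 50% of thinned cells of both efferocytic libraries. Azin1-carrying cells held more Ifrd1, Ero1l and Hilpda, the last a lipid-droplet protein. Ero1l, an oxidase of the endoplasmic reticulum, was at 83.5 CPM in carrying and 32.1 CPM in other cells in Experiment 1 and at 66.6 and 35.7 CPM in Experiment 2, and its log2 ratio was also above 0 in the non-efferocytic libraries (1.02 and 0.65). Srm-carrying cells held more of the chemokine Ccl2, at 56.0 and 16.7 CPM and at 66.7 and 40.2 CPM, followed by Manf and Tuba4a. Odc1-carrying cells of the efferocytic libraries led with Chil3, S100a8 and S100a9, transcripts of the neutrophil and monocyte lineage, with log2 ratios of 1.60 and 1.69 for Chil3. In the non-efferocytic libraries the ratios of Chil3 were -0.81 and -0.25, the other direction. For Sms (Mmp12, Rgs1, Ctsl) and Oaz2 (Slc40a1, Cd28, Washc4) the ratios were small, with lower values of 0.26 to 0.35.

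The other genes of the pathway came from 8 lists of 85 genes, of which 74 were tested. Of these, 19 rose and 21 fell in edgeR's test, and the median log2 fold change was -0.01. Over all genes tested 19.9% were called higher and 19.0% lower. For the other counts given below, 6829 of the 13869 genes had an unadjusted p under 0.05 in edgeR's test. DESeq2 called 3404 of them and edgeR on the per-cell scale 7507, in both directions together. The lists are small, with 4 to 11 genes tested, and differences between them were not tested. Among the genes named from the 6 metabolic lists, edgeR without the block no longer called Aldh18a1, Atp13a3, Dohh, Gchfr, Mtap, Mtr, Qdpr, Slc25a15 and Smox (adjusted p from 0.0528 to 0.165), DESeq2 did not call Dohh, Gchfr, Mtr and Slc25a15, and it gave Oaz3 no adjusted p.

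Arginine and cationic amino acid transport had 4 genes higher and 0 lower of 10 tested (edgeR; 6 and 2 at an unadjusted p under 0.05, 2 and 0 in DESeq2), with a median of 0.36. Slc7a1, the main cationic amino acid importer, rose from 3.17 to 4.77 CPM in Experiment 1 and from 3.27 to 8.57 CPM in Experiment 2 (log2 fold change 1.11, SE 0.174, adjusted p = 0.00223). Pqlc2, which exports cationic amino acids from lysosomes, rose by 0.82 (SE 0.0808, adjusted p = 0.000299), and Slc25a15, the mitochondrial ornithine carrier, by 0.49 (SE 0.134, adjusted p = 0.0229). The call of Slc25a15 was lost in 9 of 19 alternatives, among them DESeq2 (adjusted p = 0.105) and library totals (0.0572), with a range of 0.000579 to 0.270. For all 3 both efferocytic libraries lay above both controls.

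Around ornithine, Oat, which turns it toward proline and glutamate, rose by 0.75 (SE 0.0741, adjusted p = 0.000314) and Aldh18a1, on the path from glutamate, by 0.79 (SE 0.140, adjusted p = 0.00366). Ass1 and Asl remake arginine from citrulline and moved apart: Ass1 fell by 1.24 (SE 0.168, adjusted p = 0.00121), from 3.497 to 1.58 CPM and from 3.30 to 1.12 CPM, but was -0.62 and not called per cell (adjusted p = 0.0523), and Asl rose by 0.38 (SE 0.0734, adjusted p = 0.00543). Gatm, which uses arginine for creatine, fell by 0.43 (adjusted p = 0.00308) but was 0.18 per cell. In all, 3 genes of this list were higher and 2 lower of 11 tested, with a median of 0.10.

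In the nitric oxide list edgeR called 4 genes higher and 1 lower of 10 tested, DESeq2 2 and 1, and the median was -0.01. Gch1, the first enzyme of tetrahydrobiopterin synthesis, rose by 0.68 (SE 0.0755, adjusted p = 0.000503), and Gchfr, its feedback regulator, and Qdpr, which recycles the cofactor, by 0.56 and 0.43 (adjusted p = 0.0296 and 0.00992). The call of Gchfr was lost in 9 of 19 alternatives, among them DESeq2 (adjusted p = 0.236) and thinning to 5000 UMIs per cell (0.32, adjusted p = 0.332), and over all of them its adjusted p ranged from 0.000439 to 0.371. Ddah1, which degrades an inhibitor of the synthases, fell by 1.64 (SE 0.230, adjusted p = 0.00142). It was not called after thinning (-1.29, adjusted p = 0.119) or with 10% of UMIs removed as free RNA (-3.01, adjusted p = 0.115), and was at -3.32 without cells of other types, the adjusted p ranging from 1.26e-05 to 0.119 over all alternatives.

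Of the other polyamine genes, 2 were higher and 2 lower of 9 tested, near the 19.9% and 19.0% of all genes, with a median of -0.01. Amd1, which makes the aminopropyl donor that Srm and Sms use, rose from 5.75 to 8.90 CPM and from 7.004 to 11.5 CPM (0.78, SE 0.0992, adjusted p = 0.000934), and its near-identical copy Amd2 was at -0.01, so reads may be split between the pair. Atp13a3, a polyamine transporter, rose by 0.38 (SE 0.0893, adjusted p = 0.0128). Smox, which oxidizes spermine back to spermidine, fell by 0.42 in CPM (SE 0.0780, adjusted p = 0.00455). Per cell Smox was at 0.20 and, like Sat1, was not called (edgeR, adjusted p = 0.525). Both lay below the median of all genes on that scale, 0.60. Oaz3 was called lower by edgeR on 9 and 11 UMIs in the non-efferocytic and 1 and 1 in the efferocytic libraries, and only 10 of the alternatives gave it an adjusted p, DESeq2 not among them. DESeq2 called 2 genes of this list higher and 1 lower.

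Making spermidine and spermine leaves methylthioadenosine, and of the genes of methionine salvage and the methionine cycle 4 were called higher, 1 lower and 4 not called of 9 tested (DESeq2 called 4 and 0), with a median of 0.34. Mtap, the first step, rose by 0.65 (SE 0.104, adjusted p = 0.00243), and Adi1 and Enoph1, later steps, by 0.49 and 0.46 (adjusted p = 0.00233 and 0.00533), while Mtr, which remakes methionine from homocysteine, fell by 0.36 (adjusted p = 0.0267) but was 0.26 per cell. Spermidine is also the donor for hypusine, a modified residue of the translation factor eIF5A. Eif5a itself rose from 236 to 339 CPM and from 248 to 393 CPM (0.70, SE 0.0963, adjusted p = 0.00127), and Dohh, the second hypusine enzyme, by 0.30 (adjusted p = 0.0158), a call lost in 9 of 20 alternatives, with DESeq2 at 0.0513, library totals at 0.129 and a range of 0.00244 to 0.554 for the adjusted p. Dhps, the enzyme that takes spermidine, was at 0.07 and was not called (adjusted p = 0.486).

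Of the list of genes measured with Arg1 in alternative activation, which holds markers and regulators, edgeR called 0 of 11 tested higher and 8 lower, with a median of -0.66. At an unadjusted p under 0.05 it had 1 higher and 8 lower, and DESeq2 called 0 higher and 8 lower. Per cell, where the median of all genes was 0.60, the list had 2 genes higher and 5 lower and a median of -0.04. Il4ra (0.06) and Cebpb (0.11), both called lower in CPM, were above 0 on that scale. Ccl24, a chemokine, fell by 3.097 (SE 0.167, adjusted p = 3.52e-05), from 6.99 to 0.880 CPM and from 6.90 to 0.644 CPM. Mgl2 and Clec10a, galactose-binding lectins, fell by 2.38 and 1.73 (adjusted p = 0.000142 and 4.03e-05). Retnla was at 0 in each library. Mrc1, the gene of the CD206 protein, was not called (-0.11, edgeR, adjusted p = 0.542). Its log2 CPM ratios were -0.55 in Experiment 1 and 0.10 in Experiment 2, and it was called higher per cell (0.50, adjusted p = 0.0177). Of the genes usually measured with Nos2 in classical activation, edgeR called 0 higher and 7 lower of 10 tested (0 and 7 at an unadjusted p under 0.05, 0 and 6 in DESeq2), with a median of -1.06, led by Cxcl10 (-3.56), Il1b (-3.53) and Cxcl9 (-3.42), with adjusted p of 9.52e-05, 3.83e-05 and 0.00301. Cxcl9 rested on 24 and 7 UMIs in Experiment 1 and 98 and 4 in Experiment 2, ran from -4.09 to -2.42 with 1 library left out, where 3 of 4 fits did not call it, and was at -2.63 without cells of other types (adjusted p from 1.06e-06 to 0.154 over all alternatives). Per cell this list had 1 higher and 4 lower and a median of -0.44, and Cd80, called lower in CPM (-0.48), was at 0.14. Il4ra, Cebpb and Cd80 are named for this change of sign, and Mrc1 as a marker, after their values were seen. Macrophage, neutrophil and fibroblast markers were lower in both efferocytic libraries too, as given above, and their part in these lower levels was not tested.

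**Figure D5:**
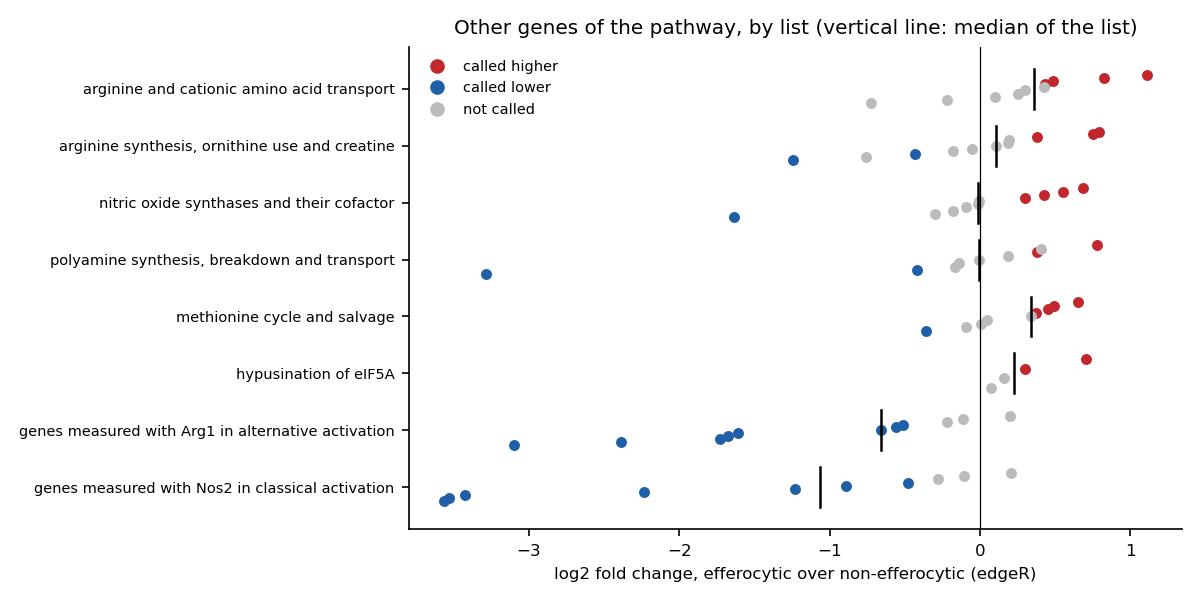
Log2 fold change (edgeR, efferocytic over non-efferocytic) of each gene tested in the 8 lists, 1 point per gene, red for genes called higher, blue for genes called lower and grey for genes not called, with a vertical line at the median of each list. The medians lie between -0.01 and 0.36 in the 6 metabolic lists and at -0.66 and -1.06 in the 2 activation lists. Per cell, where the median of all genes was 0.60, the medians of the activation lists were -0.04 and -0.44. On that scale 6 of the genes called lower (Gatm, Smox, Mtr, Il4ra, Cebpb and Cd80) were above 0 but below the median of all genes.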

How the data were processed

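The authors deposited UMI counts per gene and barcode, made with Cell Ranger (3.0.0 in the labels, 3.0.0 and 3.1.0 in the file headers) on mm10, and their notes also name Seurat 3.1. Barcodes with at least 200 genes, 1000 UMIs and at most 10% mitochondrial UMIs were kept. Doublets were kept, and an alternative removed the highest-scoring cells against simulated pairs (0.8% for each 1000 cells). Counts were summed per library and tested with edgeR 4.0.16 (R 4.3.3), TMM and filterByExpr, with the experiment named in the labels as a block. Libraries of one experiment deviated together (r = 0.787 over 7097 genes). Alternatives were DESeq2 1.42.0, other scalings, filters on genes and cells, removal of free RNA and leaving out each library. Shares of cells were taken after thinning to 5000 UMIs. On simulated counts of this comparison (13763 genes tested), 2 of 50 genes changed 1.25-fold, 32 of 50 changed 1.5-fold, 45 of 50 changed 2-fold and 48 of 50 changed 4-fold were found, and 4 unchanged genes were called. The simulation gave every gene the same dispersion (0.00749) and no difference between experiments. Far fewer genes changed in it than were called in the data, so these counts describe the simulation only. Genes named are the 10 members, up to 3 called genes per direction and list, and the first 10 (Arg1) or 3 genes ranked in carrying cells. Amd2, Dhps, Retnla, Mrc1, Il4ra, Cebpb and Cd80 are named outside this rule. The members and lists were chosen with earlier results of these data known. The study calls the experiments independent, but which animals each library holds is not given in the sources used here, so p-values speak of these libraries only. With 4 libraries and a block, edgeR takes the error of a gene in part from variance shared over genes. Each SE given with edgeR is the absolute log2 fold change divided by the square root of the test's F value. These SEs and p-values are therefore no direct measure of the spread between libraries. Positions are from GENCODE vM21 (GRCm38).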

Additional observations from a re-analysis of the deposited data

Results flagged for a closer look

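Odc1 and Oaz1 moved in opposite directions in the 2 experiments. The log2 CPM ratio of efferocytic over non-efferocytic macrophages was -0.24 in Experiment 1 and 0.23 in Experiment 2 for Odc1, and 0.15 and -0.0374 for Oaz1. The difference between experiments was not tested, since each had 1 library per group.

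Barcodes with at most 100 UMIs, which the comparisons did not use, held Arg1 at 152 CPM in the non-efferocytic and 194 CPM in the efferocytic library of Experiment 2, from 1093 and 1109 UMIs, against 0.997 and 2.08 CPM in cells. In Experiment 1 they held 0.297 and 9.62 CPM.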

How the results depend on the processing

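Without the replicate block, 3 of the 10 genes were called higher and 1 lower (4 and 2 with it), and of the other pathway genes 9 higher and 16 lower (19 and 21 with it). Calls over all 13869 genes went from 5397 with the block to 2358 in the fit without it. That fit lost the calls of Arg1 (3.73, adjusted p = 0.0694) and Sat1 (-0.57), and DESeq2 that of Arg1 (3.098, adjusted p = 0.109; range over the alternatives 1.40e-23 to 0.249). Per cell, edgeR called 0 genes of the set lower (0 at an unadjusted p under 0.05, while DESeq2 at its own scale called 2), with Sat1 at 0.0194 and Oaz2 at 0.12. It called Odc1 (0.72) and Oaz1 (0.78) higher, and of the other pathway genes 37 higher and 11 lower. Gatm (0.18), Mtr (0.26) and Smox (0.20) were above 0 on that scale but not called. Of all 13869 genes the per-cell scale called 7507, with a median of 0.60. Library totals called Arg2 lower (-0.90) and put Odc1 at -0.0051276, and thinning put it at -0.0123. With no filter on genes, 4 genes of the set were lower, Arg2 (-0.78) and Nos2 among them. Removing 10% of UMIs as free RNA left 1 lower (Sat1 at -0.64 was lost) and 11 and 10 other pathway genes, and a mean of at least 10 CPM left 11 and 12, fewer genes being tested. Over all genes these fits called 2339 of 13262 and 3026 of 7097, and the fit with no filter 5559 of 19447.

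With 1 library left out, the lone library of its group was assumed to vary like the other group, and no fit with the block had a residual degree of freedom. Without a non-efferocytic library edgeR called 0 genes of the set in either direction (3 higher and 2 lower at an unadjusted p under 0.05 without that of Experiment 1, 4 and 1 without that of Experiment 2) and 0 other pathway genes, of 2 and 0 calls over all genes. Over the 4 such fits, 0 to 4 genes of the set were higher and 0 to 3 lower, and 0 to 13 and 0 to 15 other pathway genes; without the efferocytic library of Experiment 2 the last were 5 and 10. Values among fits that lost or gained a call ran from 3.397 to 4.23 for Arg1, 1.09 to 1.41 for Srm, 0.55 (and 0.57) to 0.82 for Sms, 1.12 to 1.18 for Azin1, -0.57 (and -0.56) to -0.30 for Sat1 and -0.51 (and -0.47) to -0.37 for Oaz2, with -1.57 for Arg2, a call gained. Over all 4 they ran from 1.48 to 4.58, 0.79 to 1.58, 0.55 to 0.82, 0.91 to 1.36, -0.88 to -0.30 and -0.62 to -0.37 in that order, from -1.57 to -0.08 for Arg2, -0.0167 to 0.22 for Odc1 and 0.07 to 0.26 for Oaz1. The causes were not tested.

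With all UMIs of every cell, 7 genes had a higher share of cells in both efferocytic libraries and 1 a lower one (4 and 4 after thinning). The 1 lower gene was Nos2. It is also among the 4 lower after thinning, on 0 to 2 cells per library. Cells of the efferocytic libraries held more UMIs, as given above, and the part of this in the 7 was not tested. Neither pair of counts was set against all genes. Removing doublets, other cell types, RM1-list cells, shared barcodes or cells under 5000 UMIs changed no call of the set. RM1-list cells were too few, as given above, for their removal to change much. Removal of shared barcodes and removal on the haemoglobin scale were chosen after seeing the data. Nos2 at 0 to 43 UMIs allows no comparison. Small changes of Odc1 and Oaz1 may have been missed, and the simulation, set unlike the data, cannot say how often.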

Other observations

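In the barcodes with at most 100 UMIs, Arg2 was at 9.32 and 8.03 CPM in the non-efferocytic and efferocytic libraries of Experiment 2, from 67 and 46 UMIs, and at 0.148 and 0.363 CPM in those of Experiment 1. In cells it was at 1.14 and 0.380 CPM in Experiment 2. Sat1, by contrast, was at 546 and 362 CPM in these barcodes of Experiment 2, close to or below its level in cells, and Oaz1 at 1580 and 1476 CPM.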
